A study of Homo sapiens with 9 samples.

Results

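The mRNA levels of 10 autophagy genes are described here: the cargo receptor SQSTM1, the ATG8-family genes MAP1LC3B, GABARAP, GABARAPL1 and GABARAPL2, and the core genes WIPI1, ATG5, ATG12, BECN1 and ULK1. They were chosen by name, out of 12165 genes with a single-gene probe set, with earlier results of these data known. All 10 were measured, by 21 of the 22215 probe sets in the table. Autophagy encloses cytoplasm, damaged organelles or protein aggregates in a double membrane, the autophagosome, and delivers them to the lysosome for breakdown. Kinase and lipid kinase complexes (ULK1, BECN1) start the membrane, phosphoinositide-binding proteins such as WIPI1 mark it, and the ATG12-ATG5 conjugate helps to attach the ubiquitin-like ATG8 proteins to its lipids. Cargo receptors such as SQSTM1, also called p62, bind both ubiquitinated cargo and ATG8 proteins, and are themselves degraded with the cargo.

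The cells were LNCaP, an androgen-responsive line derived from human prostate cancer, and all cultures spent 2 days in charcoal-stripped serum, which is poor in steroids. The androgen plus celastrol group then received 1 nM R1881, a synthetic androgen, and 1.25 µM celastrol, a plant triterpenoid that reacts with thiols. The androgen group received 1 nM R1881 and the solvent DMSO, and the vehicle group received the solvents ethanol and DMSO. Each group held 3 Affymetrix arrays, and treatment lasted 24 h in the first and last group. For the androgen arrays the titles state 6 h, whereas the descriptions, protocol and design state 24 h; this conflict applies to every comparison with those arrays. A group with celastrol but no androgen was not analysed here. The labels call the replicates biological without saying how the cultures were separated, so that p-values measure only the spread between these arrays. RNA from a dish cannot tell less RNA per cell from fewer cells that express a gene.

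Values are authors' normalized intensities, 1 per probe set and array, and changes are differences of log2 intensity from limma, adjusted over all 22215 probe sets, with 0.05 as the threshold. Where a gene is counted once, its brightest single-gene probe set stands for it. Median array intensity was 72.2 to 80.2. Vehicle array 3 stood apart, with a standard deviation of 0.31 for its log2 deviations from the group means against at most 0.21 on the other arrays. Of the luminal prostate markers 6 of 8 were measured, all between percentiles 90.0 and 99.6 of probe set means, with summed intensities of 33941 to 36415 in androgen plus celastrol, 46781 to 49096 in androgen and 26709 to 27854 in vehicle. The measured basal (2 of 3), fibroblast (4 of 4), blood (2 of 3) and endothelial (2 of 2) markers lay between percentiles 19.2 and 47.0. The endothelial sum was 68.1 to 114.7 in androgen plus celastrol, 71.8 to 88.4 in androgen and 138.1 to 161.9 in vehicle, and its part in the results was not tested. As a check of the treatments, the androgen-induced genes KLK3, KLK2 and FKBP5 differed by 2.15, 4.98 and 4.49 on the log2 scale between androgen and vehicle, and HMOX1, which encodes a haem-degrading stress enzyme, by 6.27 between androgen plus celastrol and androgen.

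The promoter windows of the 4 genes that changed most are shown because 3 of them rose with celastrol and 1 with androgen. They are RefSeq sequences on GRCh38.p14, plus or minus strand as stated, from 250 bases before to 50 bases after the annotated transcript start, written 5′ to 3′. All 10 genes matched, with 13 windows in all. The SQSTM1 window is the most downstream of its 3, at chr5:179820655-179820954 on the plus strand. The MAP1LC3B window is chr16:87392086-87392385 on the plus strand, and its capitals mark a match to the core of the antioxidant response element. The GABARAPL1 window is chr12:10212627-10212926 on the plus strand, and its capitals mark a cyclic AMP response element. The WIPI1 window is chr17:68457447-68457746 on the minus strand and has no capitals because no searched motif was found in it.
SQSTM1: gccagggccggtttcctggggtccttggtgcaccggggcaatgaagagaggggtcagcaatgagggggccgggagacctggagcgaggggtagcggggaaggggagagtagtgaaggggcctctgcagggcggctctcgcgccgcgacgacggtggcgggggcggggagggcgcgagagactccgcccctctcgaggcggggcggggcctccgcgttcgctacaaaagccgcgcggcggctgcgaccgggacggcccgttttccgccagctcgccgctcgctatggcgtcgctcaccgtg
MAP1LC3B: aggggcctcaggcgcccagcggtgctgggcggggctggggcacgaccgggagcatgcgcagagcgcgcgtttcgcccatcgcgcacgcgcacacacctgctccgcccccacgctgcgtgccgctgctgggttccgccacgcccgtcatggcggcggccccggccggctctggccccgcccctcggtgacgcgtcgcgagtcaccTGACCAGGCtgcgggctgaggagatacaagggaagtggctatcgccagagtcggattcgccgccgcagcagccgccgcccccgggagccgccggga
GABARAPL1: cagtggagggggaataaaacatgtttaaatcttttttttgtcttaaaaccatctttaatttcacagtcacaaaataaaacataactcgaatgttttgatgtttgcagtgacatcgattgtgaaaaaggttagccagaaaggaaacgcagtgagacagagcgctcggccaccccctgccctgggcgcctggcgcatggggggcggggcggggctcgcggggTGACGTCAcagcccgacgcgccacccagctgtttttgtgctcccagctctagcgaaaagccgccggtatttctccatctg
WIPI1: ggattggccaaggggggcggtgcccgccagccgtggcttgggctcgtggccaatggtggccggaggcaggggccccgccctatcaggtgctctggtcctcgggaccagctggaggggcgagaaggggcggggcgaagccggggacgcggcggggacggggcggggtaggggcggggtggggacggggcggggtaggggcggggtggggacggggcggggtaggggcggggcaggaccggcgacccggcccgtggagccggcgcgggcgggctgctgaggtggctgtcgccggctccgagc

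Of 6 motifs searched on both strands, 2 were found among the 13 windows. The antioxidant response element core TGACNNNGC, which NRF2 binds, occurred as TGACCAGGC in the MAP1LC3B window, beginning 46 bases before the start. This motif lies in 13.3% of all 35116 RefSeq promoter windows of the same length. The cyclic AMP response element TGACGTCA, bound by CREB and ATF factors, occurred in the GABARAPL1 window 30 bases before the start, against 1.85% of all windows. No match overlapped another. The C/EBP-ATF composite TGATGNAA (3.62% of all windows), the E-box CACGTG (7.26%), the heat shock element of 3 alternating units (0.49%) and the TGTTCT hexamer of the androgen response element (14.8%) were in no window of the 10 genes. These are matches of letters within short windows and no measure of binding. The windows held a median of 69.0% G and C with 32 CpG sites, against 58.7% and 14 over all windows, and ranged from 27.7% for 1 of the 2 ATG5 windows to 79.7% for WIPI1.

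The first comparison asked what celastrol did to these genes in androgen-treated cells. SQSTM1, MAP1LC3B and GABARAPL1 rose 2.73-, 2.05- and 2.38-fold, and the other 7 genes did not pass the threshold. Thus 3 of 10 genes were higher, where 8.13% of all 12165 genes were called higher, and 0 of 10 were lower, where 6.60% were called lower. At an unadjusted p under 0.05, limma gave 5 higher and 1 lower. No share of all genes was taken at that threshold, so this count has no background to be judged against. Without vehicle array 3 the adjusted count was 5 higher, with GABARAP and ATG12. The median change of the 10 genes was 0.22 on the log2 scale, against 0.02 over all genes. Counted by probe set, 6 of 21 were higher and 0 lower (6.91% and 5.66% of all probe sets), and the 2 groups did not overlap for 15 of 21 probe sets, against 32.3% of all probe sets. Without vehicle array 3 the probe set counts were 9 and 1.

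**Figure D1:**
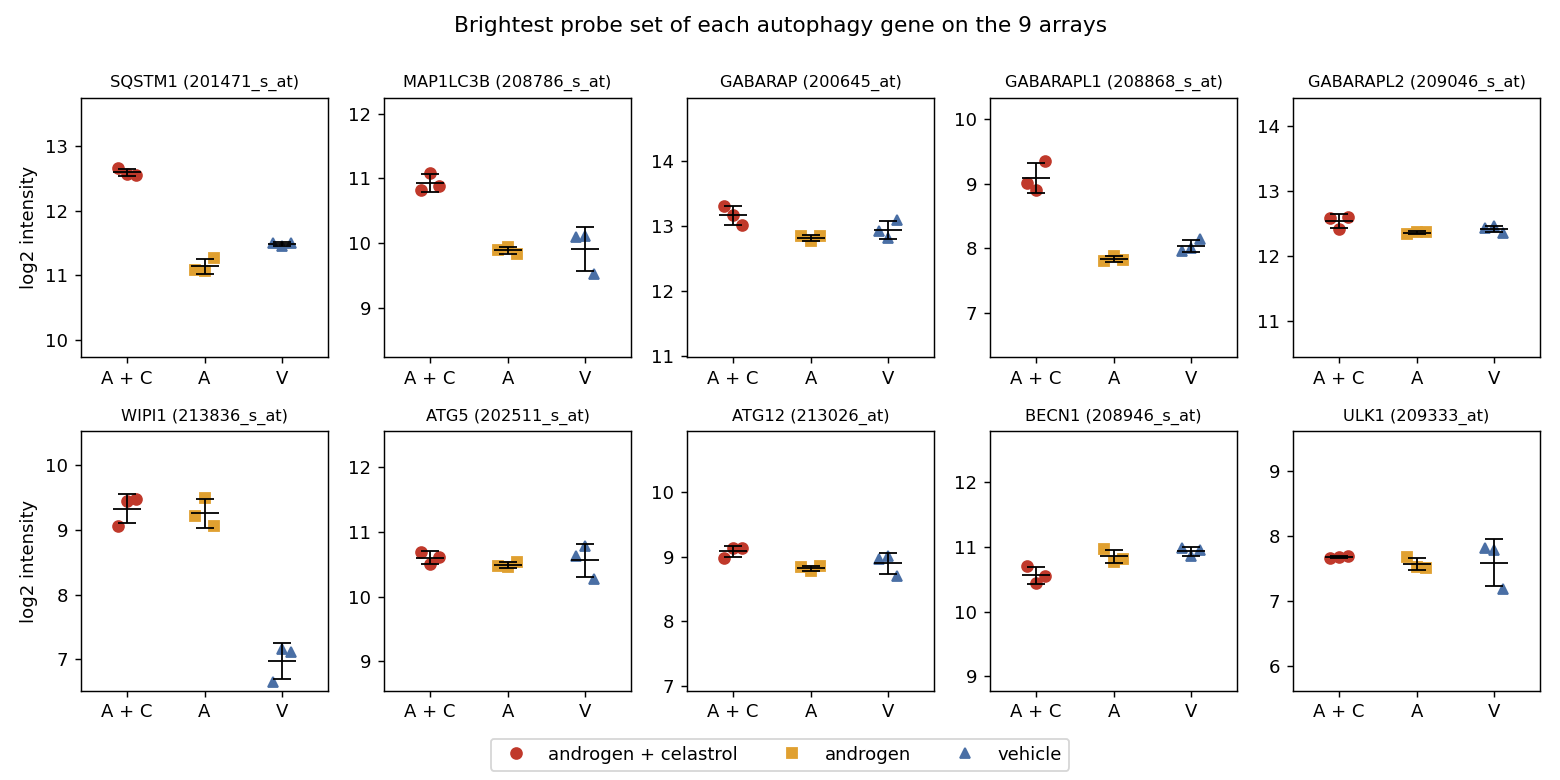
Log2 intensity (y axis, each panel spanning the same number of log2 units) of the brightest probe set of each of the 10 genes, with 1 point per array for androgen plus celastrol (A + C), androgen (A) and vehicle (V); long bars are means and whiskers 1 SD (n = 3). The androgen plus celastrol arrays lie above all 6 others for SQSTM1, MAP1LC3B and GABARAPL1, and the vehicle arrays lie below all 6 others for WIPI1.

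SQSTM1 encodes the ubiquitin-binding cargo receptor p62, which also scaffolds signalling and sequesters KEAP1, the inhibitor of NRF2. Its brightest probe set, 201471_s_at, read 6440.2, 6034 and 6009 on the androgen plus celastrol arrays, 2161, 2148 and 2469 on the androgen arrays and 2909, 2800.5 and 2898 on the vehicle arrays. Every androgen plus celastrol array was far above the other 6, and every androgen array was below every vehicle array. The change with celastrol was 1.45 ± 0.08 (SE, n = 3 arrays each; limma adjusted p = 2.87e-05), with a 95% interval of 1.26 to 1.64. A second probe set, 213112_s_at, gave 285, 322 and 287 with androgen plus celastrol, 65.3, 50.5 and 34.8 with androgen and 67.2, 79.6 and 33.8 with vehicle. The difference was 2.62 ± 0.32 against androgen (limma adjusted p = 0.000963), and again no celastrol array overlapped another group. Its readings on the androgen arrays lay below the array medians, so that the size of this change is uncertain and no fold is given. The 2 remaining probe sets were dim in every group, at percentiles 37.0 and 34.8 of probe set means. Probe set 217255_at read 47.5 to 58.1 with androgen plus celastrol, 39.5 to 47.1 with androgen and 35.9 to 56.1 with vehicle, and its difference of 0.25 ± 0.16 against androgen was not called (limma adjusted p = 0.432). Probe set 217252_at read 47.1 to 55.9, against 40.7 to 43.4 with androgen and 38.6 to 40.7 with vehicle, a difference of 0.26 ± 0.09 against androgen (limma adjusted p = 0.0973). All 4 differences of SQSTM1 were thus positive, and the 2 probe sets that were dim in every group gave the small ones.

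MAP1LC3B encodes LC3B, the ATG8 protein most used to mark autophagosomes. Its gene has a near-identical copy, MAP1LC3B2, whose transcripts these probe sets may not separate. Probe set 208786_s_at read 1804, 2162 and 1885 with androgen plus celastrol, 948, 988 and 914 with androgen and 1097, 1106 and 734 with vehicle. The celastrol arrays stood above the other 6, and within vehicle array 3 was the low one. The change was 1.03 ± 0.16 against androgen (limma adjusted p = 0.00311). Probe set 208785_s_at read 1582, 1668 and 1414 with androgen plus celastrol, 728, 668 and 690.1 with androgen and 722, 660.5 and 629 with vehicle, a change of 1.16 ± 0.09 against androgen (2.23-fold, limma adjusted p = 0.000123). The 2 probe sets gave the same separation, and vehicle array 3 was again the lowest of its group in the second.

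GABARAPL1 encodes an ATG8 protein of the GABARAP branch. Probe set 208868_s_at read 513, 480.5 and 651 with androgen plus celastrol, 224, 236 and 226 with androgen and 250.2, 258 and 283 with vehicle. The groups with and without celastrol did not overlap, and the change against androgen was 1.25 ± 0.12 (limma adjusted p = 0.000267). Probe set 208869_s_at read 391, 510.4 and 412 with androgen plus celastrol, 225, 197 and 159 with androgen and 210.0, 196 and 204 with vehicle, and changed by 1.18 ± 0.14 (2.27-fold, limma adjusted p = 0.000966). A further probe set, 211458_s_at, is annotated to both GABARAPL1 and its near-identical copy GABARAPL3 and is not counted among the 21. It read 2836, 2961 and 2876 with androgen plus celastrol, 1507, 1201 and 1282 with androgen and 1441, 1309 and 1304 with vehicle. Its change of 1.13 ± 0.10 against androgen (limma adjusted p = 0.000192) was close in size to those of the single-gene probe sets.

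**Figure D2:**
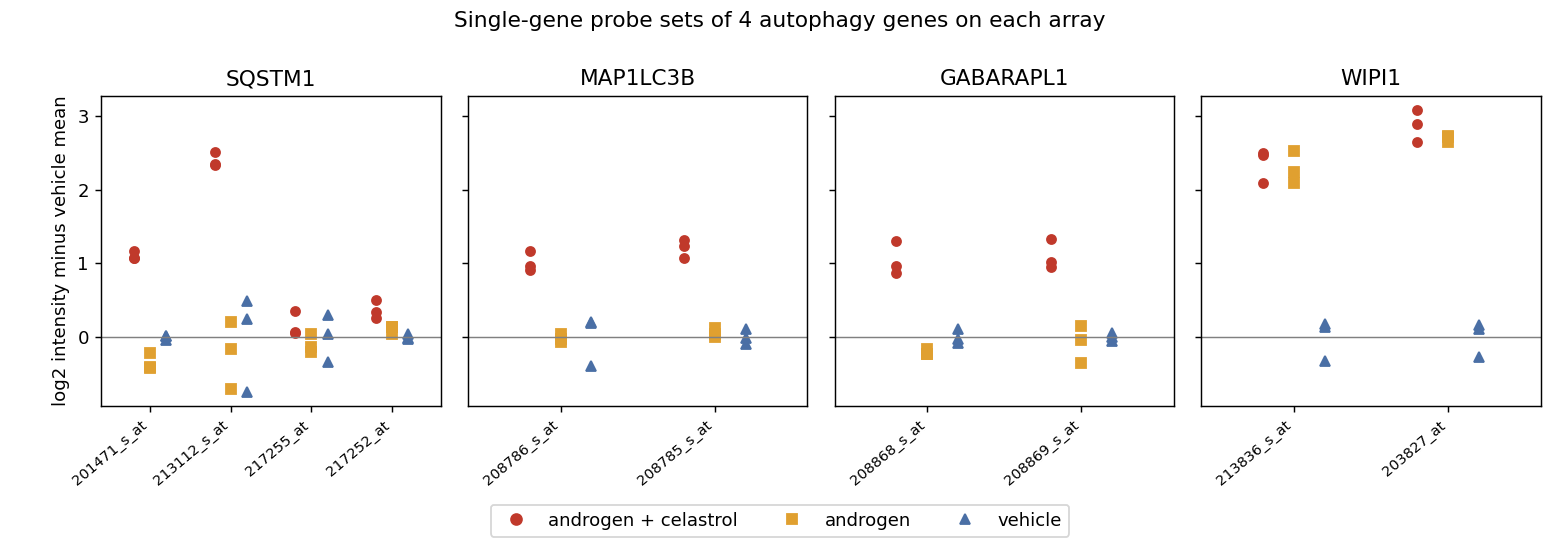
Log2 intensity minus the vehicle mean of the same probe set (y axis) for every single-gene probe set (x axis) of SQSTM1, MAP1LC3B, GABARAPL1 and WIPI1, with 1 point per array. SQSTM1 probe sets 201471_s_at and 213112_s_at and all MAP1LC3B and GABARAPL1 probe sets separate the androgen plus celastrol arrays from the rest, the other 2 SQSTM1 probe sets do so little or not at all, and both WIPI1 probe sets place the androgen arrays with the androgen plus celastrol arrays.

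The remaining ATG8 genes were not called. GABARAP encodes the founding member of its branch and was at percentile 99.0 of probe set means. It read 10182, 9193 and 8307 with androgen plus celastrol, 7401, 6956 and 7337 with androgen and 7739, 7228 and 8731 with vehicle. All 3 celastrol arrays lay above all 3 androgen arrays, but the difference was 0.35 ± 0.11 (95% interval 0.11 to 0.59, limma adjusted p = 0.0672). It was past the threshold in 5 of 20 alternatives, among them the fit without vehicle array 3 (limma adjusted p = 0.0331). GABARAPL2, also known as GATE-16, read 6166, 5467 and 6241 with androgen plus celastrol, 5157, 5305 and 5284 with androgen and 5538, 5613 and 5242 with vehicle. Here too the celastrol arrays lay above the androgen arrays, by 0.18 ± 0.08 (limma adjusted p = 0.231).

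WIPI1 encodes a protein that binds phosphatidylinositol 3-phosphate on forming autophagosomes. Probe set 213836_s_at read 534, 694 and 711 with androgen plus celastrol, 590.2, 722 and 534 with androgen and 100.4, 142 and 138 with vehicle. Probe set 203827_at read 648, 477 and 565 with androgen plus celastrol, 502, 477 and 506 with androgen and 85.9, 82.5 and 63.3 with vehicle. In both probe sets the groups with androgen overlapped each other and lay far above vehicle. Between androgen plus celastrol and androgen the differences were 0.07 ± 0.18 (95% interval -0.33 to 0.47, limma adjusted p = 0.878) and 0.18 ± 0.14 (95% interval -0.15 to 0.50, limma adjusted p = 0.560).

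ATG5 and ATG12 encode the conjugated pair that promotes ATG8 lipidation. The brightest ATG5 probe set, 202511_s_at, read 1649, 1449 and 1567 with androgen plus celastrol, 1413, 1398 and 1481 with androgen and 1582, 1749 and 1241 with vehicle. The groups overlapped, vehicle array 3 was the lowest of the 9 arrays, and the difference from androgen was 0.12 ± 0.13 (limma adjusted p = 0.670). Probe set 210639_s_at read 543, 510.1 and 560.0 with androgen plus celastrol, 463, 409 and 444 with androgen and 463, 441 and 428 with vehicle. Its celastrol arrays lay above the other 6, but the difference of 0.29 ± 0.08 against androgen was just outside the threshold (limma adjusted p = 0.0540) and passed without vehicle array 3 (limma adjusted p = 0.0380). The third ATG5 probe set, 202512_s_at, ranged over 145 to 176 with androgen plus celastrol, 132 to 177 with androgen and 124 to 237 with vehicle, all overlapping. Vehicle array 3 was again the lowest of the 9 arrays, at 124, whereas vehicle arrays 1 and 2 read 237 and 208.

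For ATG12, probe set 213026_at read 506, 561 and 561 with androgen plus celastrol, 458, 437 and 461 with androgen and 501, 514 and 418 with vehicle. The celastrol and androgen arrays did not overlap, and the difference was 0.26 ± 0.10 (limma adjusted p = 0.144). Probe set 204833_at read 408, 308 and 446 with androgen plus celastrol, 289, 299 and 291 with androgen and 299, 264 and 195 with vehicle, a difference of 0.39 ± 0.18 against androgen (limma adjusted p = 0.236). Probe set 213930_at read 120.1, 123 and 144 with androgen plus celastrol, 144, 131 and 116 with androgen and 174, 169 and 186 with vehicle. In this last probe set vehicle was highest, opposite to the second, so the ATG12 probe sets disagree and no direction is given for the gene.

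BECN1 encodes Beclin 1, a subunit of the lipid kinase complex that produces phosphatidylinositol 3-phosphate. Probe set 208946_s_at read 1666, 1389 and 1493 with androgen plus celastrol, 1993, 1745 and 1804 with androgen and 2023, 1847 and 1975 with vehicle. Every celastrol array lay below the other 6, and the difference from androgen was -0.29 ± 0.10 (95% interval -0.51 to -0.07, limma adjusted p = 0.0997). Probe set 208945_s_at read 439.8, 459 and 494 with androgen plus celastrol, 541, 549.6 and 574 with androgen and 555, 556 and 533 with vehicle, a difference of -0.26 ± 0.08 against androgen (limma adjusted p = 0.0665). Both probe sets placed the celastrol arrays lowest without passing the threshold in the main fit of this comparison. Under alternatives 208946_s_at was called lower in 3 of 20. Probe set 208945_s_at was called lower in 7 of 18, among them the fit without vehicle array 3 (limma adjusted p = 0.0468). ULK1 encodes the kinase that starts autophagy downstream of mTOR and AMPK, and its single probe set 209333_at read 203, 206 and 207 with androgen plus celastrol, 206, 184 and 183 with androgen and 225, 220.1 and 145 with vehicle. The groups overlapped, vehicle array 3 was the lowest of the 9 arrays, and the difference of 0.11 ± 0.16 against androgen had a 95% interval of -0.25 to 0.47 (limma adjusted p = 0.768).

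**Figure D3:**
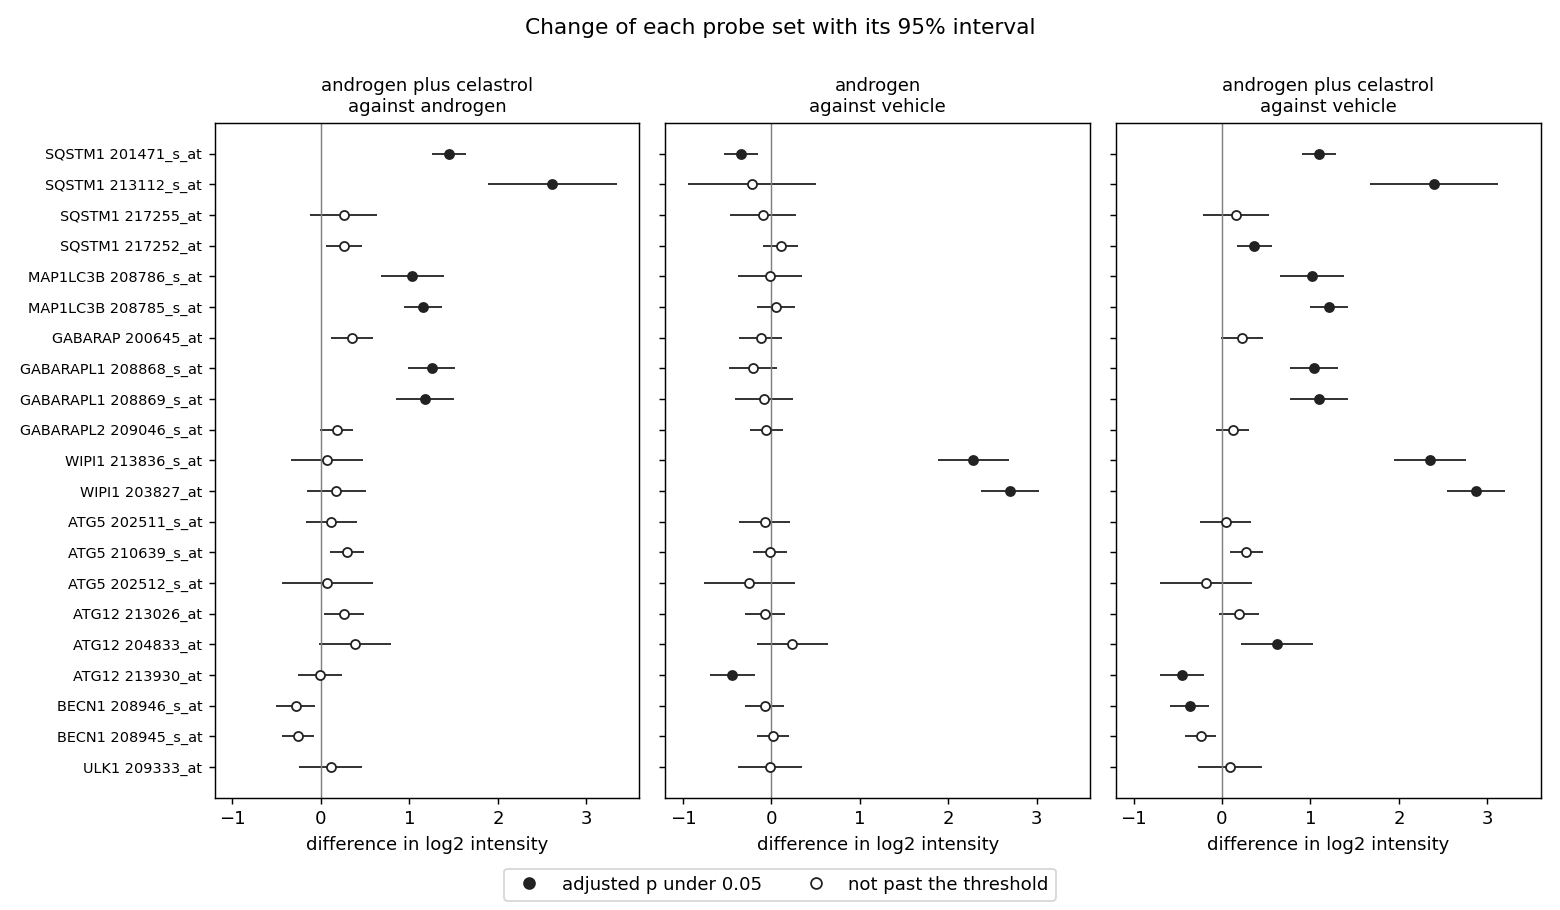
Difference in log2 intensity (x axis) with its 95% interval from limma for each of the 21 single-gene probe sets (rows), in androgen plus celastrol against androgen, androgen against vehicle, and androgen plus celastrol against vehicle; filled points have an adjusted p under 0.05. The filled points of the first panel belong to SQSTM1, MAP1LC3B and GABARAPL1, and WIPI1 is filled in both panels set against vehicle.

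The second comparison asked what androgen did without celastrol. WIPI1 rose and SQSTM1 fell, so that 1 of 10 genes was higher (6.71% of all genes) and 1 lower (5.35% of all genes). The median change was -0.08, against -0.04 over all genes. Of the 21 probe sets 2 were higher and 2 lower (6.04% and 4.47% of all probe sets), and groups did not overlap for 6 of 21, against 25.3% of all probe sets. The number of lower probe sets was 1 or 0 under leave-one-out, except without androgen plus celastrol array 1 or vehicle array 3, where it was 2. Without vehicle array 3 these were not the same 2. ATG12 probe set 213930_at was lost and ATG5 probe set 202512_s_at was newly called (-0.53, limma adjusted p = 0.0477). WIPI1 rose by 2.28 ± 0.18 in probe set 213836_s_at (4.87-fold, limma adjusted p = 5.32e-05) and by 2.69 ± 0.14 in 203827_at (6.47-fold, limma adjusted p = 6.6e-06). SQSTM1 differed by -0.35 ± 0.08 in its brightest probe set, a mean of 2259 ± 182 with androgen and 2869 ± 59.6 with vehicle (SD, n = 3 each), with a limma adjusted p of 0.0309. This call was not firm: it held in 10 of 20 alternatives, and the limma adjusted p was 0.0664 with the replicate number as a block, 0.151 after subtraction of array medians, and 0.125, 0.129, 0.0995, 0.0653, 0.0527 and 0.0510 without androgen array 1 or 2, vehicle array 1 or 2, or androgen plus celastrol array 2 or 3. It was also lost with the mean of the gene's probe sets and with only the 2 groups compared (limma adjusted p = 0.596 and 0.0659). The other SQSTM1 probe sets, at -0.22, -0.10 and 0.11, were not called. ATG12 probe set 213930_at fell by 0.44 ± 0.11 (limma adjusted p = 0.0349). This call held in only 7 of 18 alternatives, with limma adjusted p up to 0.125. The limma adjusted p was 0.0786 with the replicate block and 0.0707 without vehicle array 3. The brighter ATG12 probe sets gave -0.07 and 0.23, neither called.

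The remaining members did not pass the threshold between androgen and vehicle. The ATG8 differences were -0.02 ± 0.16 and 0.05 ± 0.09 for the MAP1LC3B probe sets, -0.12 for GABARAP, -0.21 ± 0.12 and -0.08 ± 0.14 for GABARAPL1 and -0.06 for GABARAPL2. The groups overlapped for these probe sets except 208868_s_at of GABARAPL1, where every androgen array lay below every vehicle array. BECN1 gave -0.08 and 0.02, ULK1 -0.02 ± 0.16, and the 3 ATG5 probe sets -0.08, -0.02 and -0.25. The third ATG5 probe set was called lower in 2 of 18 alternatives. These were the fit without vehicle array 3 (limma adjusted p = 0.0477) and the fit with array weights (limma adjusted p = 0.00967). Over all probe sets 1341 were higher and 992 lower in this comparison, and 1821 and 738 once array medians were subtracted, so that the balance of directions depends on the scaling. The fall of SQSTM1 lost its call under that scaling, as given above, while WIPI1 remained between 2.12 and 2.57 and called in all 20 alternatives.

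The third comparison set androgen plus celastrol against vehicle, both labelled 24 h, and therefore does not rest on the androgen arrays except through the shared estimate of spread. It shares its celastrol arrays with the first comparison and its vehicle arrays with the second, so the 3 sets of values are not independent. SQSTM1, MAP1LC3B, GABARAPL1 and WIPI1 were higher, and BECN1 was lower. These are 4 of 10 genes higher (12.6% of all genes) and 1 of 10 lower (9.30% of all genes), with a median change of 0.21 against -0.01 over all genes. Of the 21 probe sets 10 were higher and 2 lower (11.1% and 7.94% of all probe sets), and groups did not overlap for 14 of 21, against 33.5% of all probe sets. The 2 lower probe sets were 1 without androgen plus celastrol array 1 or 3 or vehicle array 3, and 0 without androgen plus celastrol array 2 or vehicle array 1.

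SQSTM1 rose by 1.10 ± 0.08 (2.15-fold, limma adjusted p = 4e-05) in its brightest probe set, by 2.40 ± 0.32 in 213112_s_at (limma adjusted p = 0.000837) and by 0.37 ± 0.09 in the dim 217252_at (limma adjusted p = 0.0181). MAP1LC3B rose by 1.02 ± 0.16 (2.02-fold) and 1.21 ± 0.09 (2.32-fold), and GABARAPL1 by 1.04 ± 0.12 (2.06-fold) and 1.10 ± 0.14 (2.14-fold), with limma adjusted p between 4.27e-05 and 0.00206. WIPI1, with its mean of 646 ± 97.4 in androgen plus celastrol against 127 ± 23.2 in vehicle (SD, n = 3 each), rose by 2.35 ± 0.18 in 213836_s_at (5.11-fold, limma adjusted p = 3.7e-05) and by 2.87 ± 0.14 in 203827_at (7.30-fold, limma adjusted p = 5.62e-06). BECN1 fell by 0.36 ± 0.10 in 208946_s_at (limma adjusted p = 0.0292), and its other probe set gave -0.24 ± 0.08 (limma adjusted p = 0.0651). The BECN1 call held in 14 of 20 alternatives. It was lost without androgen plus celastrol array 2 or 3 or vehicle array 1 or 3, with limma adjusted p of 0.100, 0.0841, 0.0925 and 0.0525. Subtraction of array medians and the fit of only the 2 groups compared also lost it (limma adjusted p = 0.0877 and 0.0698). The ATG12 probe sets differed in sign, at 0.62 ± 0.18 in 204833_at (limma adjusted p = 0.0397) and -0.45 ± 0.11 in 213930_at (limma adjusted p = 0.0195). The first call held in 8 of 18 alternatives. It was lost with array weights, the replicate block and only the 2 groups compared (limma adjusted p = 0.0538, 0.0620 and 0.108). It was also lost without any 1 of the androgen arrays, androgen plus celastrol array 1 or 3, or vehicle array 2 or 3. There the limma adjusted p was up to 0.133. The second held in 15 of 18 and was lost without androgen plus celastrol array 1 or 2 or vehicle array 1. GABARAP at 0.22 ± 0.11 (limma adjusted p = 0.191), GABARAPL2 at 0.12, ULK1 at 0.09 and the 3 ATG5 probe sets at 0.04, 0.28 and -0.18 were not called. Under alternatives ATG5 probe set 210639_s_at was called higher in 5 of 18. Probe set 202512_s_at was called lower in 1 of 18, with array weights (limma adjusted p = 0.0226).

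Across the groups, the 10 genes fell into a few patterns of level. SQSTM1 stood at a mean of 6161 ± 242 with androgen plus celastrol, 2259 ± 182 with androgen and 2869 ± 59.6 with vehicle (SD, n = 3 each). MAP1LC3B averaged 1950.1 ± 188 with androgen plus celastrol, 949.8 ± 36.9 with androgen and 979 ± 212 with vehicle, and its androgen and vehicle arrays overlapped. GABARAPL1 gave means of 548 ± 90.3 with androgen plus celastrol, 229 ± 6.49 with androgen and 264 ± 17.4 with vehicle. WIPI1 alone among the 10 had both androgen groups above vehicle in all arrays of both probe sets. In the first comparison SQSTM1 ranged over 1.15 to 1.52, MAP1LC3B over 0.96 to 1.10 and GABARAPL1 over 1.12 to 1.34 across the 20 alternatives, and all were called in each.

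By log2 values centred on the vehicle mean, the genes most like each of the 3 celastrol-raised genes over the 9 arrays were found by root mean square difference, given as a description. For SQSTM1 they were IFRD1, DNAJB4 and KLHL21, each at 0.12, with changes against vehicle of 0.98, 1.04 and 1.01 for androgen plus celastrol and -0.36, -0.48 and -0.39 for androgen. For MAP1LC3B they were CTSA at 0.10, DHRS7B at 0.11 and GRN at 0.11, with changes against vehicle of 1.05, 1.16 and 0.91 for androgen plus celastrol and -0.14, -0.08 and -0.11 for androgen. For GABARAPL1 they were IFRD1 at 0.15, LINC00115 at 0.16 and SQSTM1 itself at 0.17. CTSA encodes the lysosomal protease cathepsin A and GRN encodes progranulin, which is processed in lysosomes. No function is given here for the other neighbours, among them DHRS7B, and a shared theme was not tested.

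Other genes of the pathway were read from lists made with earlier results of these data known. Over all 12165 genes, 8.13% were higher and 6.60% lower with celastrol added to androgen. The shares were 6.71% and 5.35% for androgen against vehicle, and 12.6% and 9.30% for the combined treatment against vehicle. All list counts below are set beside these shares, and a count of 1 in a list is not read as a result about it. No share over all genes was taken at an unadjusted p under 0.05, so the unadjusted counts in the lists below have no background to be judged against. In the initiation and lipid kinase complexes, 11 of 11 genes were measured; with celastrol added to androgen 3 were higher and 1 lower, with a median of 0.18. RB1CC1 (FIP200), the ULK1 complex scaffold, read 1105, 1179 and 1089.7 with androgen plus celastrol, 541, 559 and 593 with androgen and 723, 676 and 807 with vehicle, rising by 1.00 ± 0.09 (limma adjusted p = 0.000221). ATG13, another subunit, rose by 0.55 ± 0.12 (limma adjusted p = 0.0194) and NRBF2, a lipid kinase complex subunit, by 0.68 ± 0.15 (limma adjusted p = 0.0207), but the number of higher genes was 1 without androgen plus celastrol array 2 or 3 or androgen array 1 or 3. ATG13 also lost its call when its probe sets were averaged (limma adjusted p = 0.109). PIK3R4 fell by 0.52 ± 0.09 (limma adjusted p = 0.00624), a call lost when its probe sets were averaged (limma adjusted p = 0.311). Between androgen and vehicle ATG101, a ULK1 complex subunit, rose by 1.25 ± 0.17 (limma adjusted p = 0.00162) and RB1CC1 fell by 0.38 ± 0.09 (limma adjusted p = 0.0292; 0.0601 with the replicate block), 1 of 11 in each direction. The call of RB1CC1 was lost without any 1 of the androgen arrays or vehicle array 1 or 3. Against vehicle the combined treatment raised 4 of 11 and lowered 1, led by ATG101 at 1.48 and NRBF2 at 0.97. The lower gene, PIK3R4 at -0.32, kept its call only without vehicle array 1 when 1 array was left out.

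In the list of ATG8 conjugation, lipid transfer and phosphoinositide-binding genes 13 of 16 were measured, and 4 were higher and 0 lower with celastrol added (7 and 0 at an unadjusted p under 0.05 in limma). ATG4A, a protease that processes ATG8 proteins, read 1193, 1115 and 1131 with androgen plus celastrol, 614, 596 and 643 with androgen and 657, 632 and 611 with vehicle, and rose by 0.89 ± 0.08 (limma adjusted p = 0.000166). ATG3, the E2-like enzyme that transfers ATG8 to lipid, rose by 0.46 ± 0.09 (limma adjusted p = 0.0113). ATG2B, a lipid transfer protein, rose by 0.45 ± 0.11 (limma adjusted p = 0.0301) and WDR45, a WIPI-family protein, by 0.39 ± 0.11 (limma adjusted p = 0.0481). The WDR45 call was lost in 11 of 20 alternatives, that of ATG2B in 8 and that of ATG3 in 2. After quantile normalization the limma adjusted p was 0.0872 for WDR45 and 0.0804 for ATG2B. The count of 4 was 2 without androgen plus celastrol array 2 or androgen array 1 or 2, and 1 without androgen array 3. ATG3 fell by 1.09 ± 0.09 with androgen against vehicle (limma adjusted p = 8.32e-05), the 1 of 13 called there with 0 higher, at 1775, 1672 and 1599 with androgen and 3643, 3764 and 3312 with vehicle. With androgen plus celastrol it read 2217, 2217 and 2495, above androgen and below vehicle on every array. Against vehicle the combined treatment raised 4 of 13 and lowered 1, and the 4 became 2 without any 1 of the androgen plus celastrol arrays.

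Among other autophagy receptors 15 of 16 were measured, and 7 were higher and 0 lower with celastrol added to androgen (10 and 0 at an unadjusted p under 0.05 in limma), with a median of 0.37. CCPG1, a receptor for autophagy of the endoplasmic reticulum, read 589, 588 and 527 with androgen plus celastrol, 231, 181 and 198 with androgen and 170.2, 161 and 144 with vehicle, rising by 1.48 ± 0.11 (limma adjusted p = 9.96e-05). OPTN, a ubiquitin-binding receptor, rose by 0.95 ± 0.16 (limma adjusted p = 0.00435), CALCOCO2, the receptor NDP52, by 0.66 ± 0.09 (limma adjusted p = 0.00211), and STBD1, a glycogen-binding protein, by 0.63 ± 0.10 (limma adjusted p = 0.00412). The ubiquitin-binding TAX1BP1 was not called at 0.15. With androgen against vehicle 4 of 15 were lower and 0 higher (5 and 3 at an unadjusted p under 0.05 in limma). RETREG1, also called FAM134B and likewise a receptor of the endoplasmic reticulum, read 277, 245 and 284 with androgen and 886, 869 and 884 with vehicle, a log2 change of -1.71 ± 0.08 (limma adjusted p = 4.32e-06). With androgen plus celastrol it read 303, 319 and 319, so both androgen groups lay far below vehicle. OPTN (-0.65), STBD1 (-0.54) and WDFY3 (-0.53) were the other falls, and the limma adjusted p of WDFY3 was 0.0682 with the replicate block. The OPTN call was lost in 6 of 20 alternatives (limma adjusted p up to 0.120) and that of WDFY3 in 9 of 20. STBD1 kept its call in all 20. The count of 4 was 2 without androgen plus celastrol array 2, androgen array 2 or 3, or vehicle array 1. Against vehicle the combined treatment gave 6 higher and 2 lower of 15, with CCPG1 at 1.84 and RETREG1 at -1.49; the 2 were 1 without any 1 of the androgen plus celastrol arrays or androgen array 1 or 3.

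Genes of autophagosome fusion were measured for 11 of 14, and 4 were higher and 0 lower with celastrol added to androgen (6 and 0 at an unadjusted p under 0.05 in limma), with a median of 0.47. YKT6, a SNARE protein, rose by 0.91 ± 0.11 (limma adjusted p = 0.000916), SNAP29, another SNARE, by 0.66 ± 0.12 (limma adjusted p = 0.00662), the adaptor PLEKHM1 by 0.66 ± 0.18 (limma adjusted p = 0.0423) and the small GTPase RAB7A by 0.47 ± 0.08 (limma adjusted p = 0.00474). The PLEKHM1 call was lost without any 1 of the androgen plus celastrol or androgen arrays or vehicle array 1 (limma adjusted p 0.0551 to 0.144). With androgen against vehicle RAB7A was the 1 gene lower, by 0.36 (limma adjusted p = 0.0172), and 0 were higher (1 at an unadjusted p under 0.05). RAB7A lost that call without any 1 of the androgen arrays or vehicle array 1 or 2. The call was also lost after subtraction of array medians (limma adjusted p = 0.0749) and with the mean of its probe sets (limma adjusted p = 0.235). Against vehicle the combined treatment gave 3 higher and 0 lower, with YKT6 at 1.19 and PLEKHM1 at 0.65, the second lost in 5 of 20 alternatives; without vehicle array 3 it gave 1 lower.

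Lysosomal proteins and their transcription factors were measured for 27 of 30. With celastrol added to androgen 18 were higher and 0 lower, where 8.13% and 6.60% of all genes were called. The median was 0.58 against 0.02 over all genes. At an unadjusted p under 0.05 limma gave 21 and 0, without a share of all genes to set beside them. GPNMB, a lysosomal membrane glycoprotein, rose by 3.26 ± 0.09 (limma adjusted p = 4.09e-07). GLA, alpha-galactosidase A, read 1032, 975 and 976 with androgen plus celastrol, 399.8, 359 and 324 with androgen and 427, 391.9 and 324 with vehicle, and rose by 1.47 ± 0.12 (limma adjusted p = 0.00013). CTSD, cathepsin D, read 564, 689 and 523 with androgen plus celastrol, 242, 284 and 217 with androgen and 273, 253 and 253 with vehicle, and rose by 1.26 ± 0.13 (limma adjusted p = 0.00042). CTSA rose by 1.19 ± 0.15 (limma adjusted p = 0.00108). The androgen and vehicle arrays of GLA and CTSD overlapped each other. With androgen against vehicle 2 of 27 were higher and 2 lower (2 and 7 at an unadjusted p under 0.05 in limma), with a median of -0.08, and the number lower was 7 after quantile normalization, 5 after cyclic loess and 11 with array weights. In this comparison the cholesterol exporter NPC1 rose by 0.94 ± 0.12 and the proton pump subunit ATP6V1D by 0.45, while GPNMB fell by 0.88 and the protease CTSB by 0.36. The 2 lower genes were 1 without any 1 of the androgen arrays or vehicle array 1. Against vehicle the combined treatment gave 16 higher and 0 lower (20 and 0 at an unadjusted p under 0.05 in limma), with a median of 0.52, led by GPNMB at 2.37 and NPC1 at 1.69.

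Nutrient and stress control genes were measured for 18 of 25, and 8 were higher and 3 lower with celastrol added to androgen. The stress factors moved most: DDIT3 (CHOP) rose by 2.70 ± 0.15 (limma adjusted p = 2.24e-05), its target TRIB3, a pseudokinase, by 1.88 ± 0.21 (limma adjusted p = 0.000546) and DDIT4 (REDD1), an inhibitor of mTOR complex signalling, by 1.38 ± 0.10 (limma adjusted p = 8.97e-05). TSC2, whose product restrains mTOR signalling, fell by 1.00 ± 0.14 (limma adjusted p = 0.00165), but its probe sets disagree and their mean gave a limma adjusted p of 0.634. With androgen against vehicle 4 were higher and 3 lower, among them SESN1, a stress-induced inhibitor of mTOR signalling, which fell by 0.90 ± 0.08 (limma adjusted p = 0.000156), and BCL2L1, which encodes the Beclin 1-binding protein BCL-xL and rose by 0.51 ± 0.09 (limma adjusted p = 0.00483). The 4 were 2 without androgen array 2 or vehicle array 1 or 2, and the 3 were 1 without androgen array 3 or vehicle array 1. Against vehicle the combined treatment gave 7 higher and 1 lower, with TRIB3 at 2.23, DDIT3 at 2.11 and SESN1 at -1.62.

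**Figure D4:**
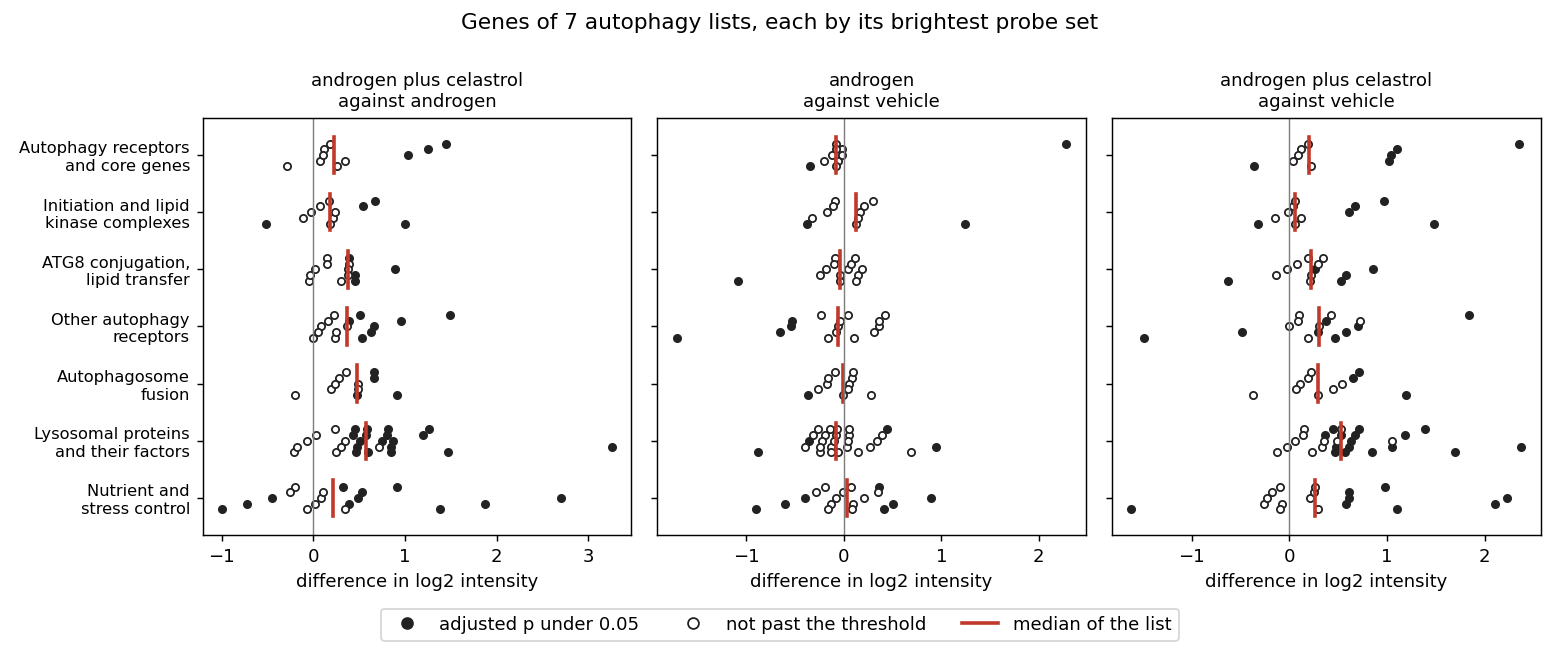
Difference in log2 intensity (x axis) of each gene, by its brightest probe set, in the 10 genes and the other autophagy lists (rows), for the 3 comparisons; filled points have a limma adjusted p under 0.05 and red bars are list medians. In the first panel 18 of 27 lysosomal genes are filled to the right of 0 and none to the left. Of all genes, 8.13% were higher and 6.60% lower there. In the second panel the medians lie between -0.08 and 0.13.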

How the data were processed

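RNA of the 9 cultures was measured on Affymetrix human genome arrays. For every probe set and array the authors deposited a linear intensity that they had made with RMA, per the submitters' processing notes. Its version is not given in the sources used here. RMA is designed to bring arrays to a common distribution, which hides changes in total RNA. The deposited values were not fully on a common distribution. Upper quartiles of intensity ran from 332 on vehicle array 3 to 409 on androgen plus celastrol array 3. The annotation table gives 1 gene for 19724 of the 22215 probe sets, several for 568 and none for 1923. The RefSeq gene table, which supplied current symbols, held the gene IDs of 19707.

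Groups follow the labels. Log2 intensity (pseudocount 0) of all probe sets and arrays was fitted with limma 3.58.1 (R 4.3.3) by lmFit and eBayes with no trend, which left 6 residual degrees of freedom and added 2.8 prior ones. P-values were adjusted by Benjamini-Hochberg over all probe sets, and the threshold was 0.05. Precision is limited by the number of arrays, and a change had a median standard error of 0.13. Array batches were not tested. The alternatives were other scalings, a pseudocount of 16, a filter on low values, other uses of a gene's probe sets, an intensity trend, array weights, a replicate block, fits of only the 2 groups compared, and leaving out each array.

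Named genes are all members. Per list and comparison, up to 4 genes past the threshold with the largest change and 1 with the highest mean that did not pass were eligible, of which not all are printed. The 3 genes most like each member that celastrol changed, and KLK3, KLK2, FKBP5, HMOX1 and GPNMB, complete the rule. Values of a named gene in a further comparison were added after they were seen. The members, lists and motifs were chosen with earlier results of these data known.

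The labels number replicates 1 to 3 in each group. Deviations of same-numbered arrays correlated at 0.39, 0.37 and 0.63 for androgen and vehicle, although vehicle 2 correlated at 0.41 with androgen 1. They correlated at -0.09, 0.22 and -0.16 for androgen plus celastrol and androgen, and at -0.26, 0.12 and -0.27 for androgen plus celastrol and vehicle. The main fit used the group only, without pairing in any comparison, and the replicate block was run as an alternative. With that block 0 member probe sets were lower in androgen against vehicle, where the main fit had 2.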

Additional observations from a re-analysis of the deposited data

How the results depend on the processing

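No called change of a member's probe set turned its direction under any alternative run. Of 1194 changes of the members' probe sets under alternatives, 1115 stayed on the same side of the threshold, 36 newly passed it and 43 no longer passed. For androgen plus celastrol against androgen, 1 member was lower with the mean of a gene's probe sets, and 5 were higher and 1 lower with an intensity trend and also with array weights, a fit that did not converge fully. The number higher was 3 to 5 when 1 array was left out, the 5 arising without vehicle array 3. Probe sets called, 2792 in this comparison, were 1845 with the mean (12165 genes tested), 4524 with array weights and 1750 (without androgen array 2) to 3919 (without vehicle array 3) when 1 array was left out. For androgen against vehicle the 1 lower member became 0 after subtraction of array medians, with the mean of probe sets, with the replicate block and with only the 2 groups compared, and was 0 to 1 when 1 array was left out; probe sets called, 2333, were 1497 with the mean, 5136 with array weights and 1552 to 2631 when 1 array was left out. For androgen plus celastrol against vehicle the 1 lower member became 0 after subtraction of array medians and with only the 2 groups compared, and was 0 to 1 when 1 array was left out; probe sets called, 4222, were 2725 with the mean and 6645 with array weights. With the replicate block 1357 probe sets were higher and 1040 lower for androgen plus celastrol against androgen, 1194 and 829 for androgen against vehicle, and 2382 and 1692 for androgen plus celastrol against vehicle. The cause of these differences was not tested. SQSTM1 probe sets 217255_at and 217252_at were dim in every group, and whether this bears on their small changes was not tested.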
